A study of Mus musculus with 18 samples.

Results

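Gm8210, 6820402A03Rik, Gm12666, Gm9008, Klrb1 and AC160966.1 are 6 of the 54232 genes counted in round spermatids (RS) of WT, KO and KI mice. They were chosen by their own counts: in each of them the libraries of at least 1 genotype fell into a high state and a state near zero. Their values are therefore given as a description, with no p-value. RS are haploid male germ cells, formed by meiosis, that later elongate into sperm. RNA was measured in 6 libraries each of WT, KO and KI, 18 in all, from testes of mice aged 75 to 85 days. KO mice lack GRTH, the RNA helicase encoded by Ddx25, which takes part in the export and storage of germ cell mRNAs. KI mice carry a human GRTH gene with a missense mutation and lack phosphorylated GRTH. The strain is not given in the sources used here. Nothing in the labels says whether libraries of a genotype came from separate animals, so p-values below measure the spread between these libraries, which may be technical. In RNA from bulk cells, fewer cells of a type and less RNA per cell cannot be told apart.

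Gm8210, Gm12666 and Gm9008 match coding genes over nearly their whole length. Retrocopies, 1 kind of such genes, arise when a spliced mRNA is copied back into the genome. Most lie silent, some are transcribed, and the testis is the tissue best known for transcribing them. Long non-coding RNAs such as AC160966.1 are also numerous in spermatids. Klrb1 belongs to the lectin-like receptors of natural killer cells, whose genes lie side by side in a large cluster on mouse chromosome 6.

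The copies and the coding genes they match differ at few bases, which is why their sequences are set side by side here. The stretches come from GENCODE M21 transcripts on GRCm38, read 5′ to 3′, and capitals mark the bases at which the sequences of a pair differ. The first pair is the first 90 bases of Gm8210 and of the coding sequence of Rpl29, with 1 difference.
Gm8210: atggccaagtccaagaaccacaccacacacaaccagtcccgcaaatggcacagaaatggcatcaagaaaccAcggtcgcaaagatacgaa
Rpl29: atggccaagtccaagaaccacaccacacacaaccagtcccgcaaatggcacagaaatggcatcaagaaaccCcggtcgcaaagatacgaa
The second pair is bases 363 to 452 of the Gm12666 transcript and bases 732 to 821 of the coding sequence of Larp7, with 4 differences.
Gm12666: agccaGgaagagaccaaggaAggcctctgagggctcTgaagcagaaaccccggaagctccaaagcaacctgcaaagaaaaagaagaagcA
Larp7: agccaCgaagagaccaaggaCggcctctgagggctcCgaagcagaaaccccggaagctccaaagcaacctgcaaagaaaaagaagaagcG
The third pair is bases 217 to 306 of Gm9008 and bases 64 to 153 of the coding sequence of Rnf26, with 2 differences.
Gm9008: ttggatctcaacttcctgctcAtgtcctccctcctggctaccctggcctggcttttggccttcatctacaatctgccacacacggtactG
Rnf26: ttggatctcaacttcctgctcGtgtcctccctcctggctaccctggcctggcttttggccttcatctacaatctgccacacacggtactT

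Over its whole length Gm8210 matched Rpl29, which encodes a protein of the large ribosomal subunit, at 99.4% of 483 bases, with 3 mismatches. It matched the annotated transcripts of 126 genes, 32 of them at 95% identity or more, and its 483 bases were identical to those of the processed pseudogene Gm13841. Each of its 434 windows of 50 bases, and each of its 384 windows of 100 bases, was also present in a transcript of another gene. Counts on Gm8210 are thus uncertain. A read that aligns equally well to another copy has several alignments, and such reads were not counted. Which reads made up the counts on Gm8210 was not tested. Gm12666 matched Larp7, a protein that binds a small nuclear RNA that restrains transcription, at 98.4% of 764 aligned bases with 9 mismatches. Of its 715 windows of 50 bases, 52.4% were shared with another gene, and of the windows of 100 bases 25.9%. Gm9008 matched Rnf26, an E3 ubiquitin ligase, at 99.1% of 2322 bases with 17 mismatches. It shared 65.4% of windows of 50 bases and 37.2% of windows of 100 bases. The other 3 genes shared few or no windows with annotated transcripts of other genes, and the rest of the genome was not searched. 6820402A03Rik had no match in another gene and shared 0% of its windows, Klrb1 also shared 0% and had its best match at 79.6% to Klrb1f, and AC160966.1 shared 3.06% of windows of 50 bases.

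Library depth was 18766971 to 26776555 counts on genes. Levels are given as counts and as CPM, counts scaled to library size with edgeR's TMM factors. A library was called on for a gene at 1 CPM or more, and 3 counts or fewer were taken as the floor, which lay at 0.112 to 0.160 CPM. Such floors cover counting error only. Ddx25 had 11433 to 14208 counts in WT, 1005 to 2074 in KO and 1 to 13 in 5 KI libraries. The library labelled KI 4 had 1345 counts of Ddx25, within the range of KO and against its label. It is named by its label throughout and was kept in KI, so KI values with n = 6 include it. Marker genes of RS summed to 718 to 1500 CPM over 8 genes, those of spermatocytes to 1090 to 1480 over 6 genes, those of spermatogonia to 15.8 to 59.1 CPM, and those of Sertoli cells to 8.01 to 19.6. Leydig cell markers summed to 10.8 to 22.4 CPM in WT, 33.9 to 57.9 in KO and 14.5 to 74.4 in KI, and 0 of 6 were called in any comparison. Spermatocyte markers were present in every genotype and Leydig cell markers were higher in all KO than in all WT libraries, and their part in the results was not tested.

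Gm8210 (ENSMUSG00000094497) is a processed pseudogene of 1 exon on the plus strand of chromosome 1 (43189156 to 43189638 of GRCm38), inside an intron of Fhl2, which lies on the other strand. WT 1 to 4 had 7, 8, 6 and 5 counts, whereas WT 5 and WT 6 had 846 and 729. KO 2 and KO 3 had 312 and 168 counts, and KO 1, 4, 5 and 6 had 1, 5, 2 and 4. The KI libraries 1 to 6 had 361, 497, 348, 332, 230 and 492 counts. Gm8210 was thus split in both WT and KO and on in every KI library. The 10 libraries that were on spanned 7.98 to 40.1 CPM, a range of 5.02-fold, and the 8 others reached 0.321 CPM at most.

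6820402A03Rik (ENSMUSG00000103706) is a transcript still to be experimentally checked in GENCODE, with 1 exon of 2654 bases on the minus strand of chromosome 1 (66793645 to 66796298). It lies inside Kansl1l on the same strand and shares 0 exon bases with it. WT 1 to 4 had 354, 346, 256 and 297 counts, and WT 5 and WT 6 had 0 and 0. KO 1 to 6 had 223, 256, 463, 470, 375 and 299. KI 1 and KI 2 had 90 and 117 counts, below the 280, 325, 264 and 206 of KI 3 to 6. WT 5 and WT 6 were the only libraries of the 18 without it, and 3 counts in them correspond to 0.142 and 0.138 CPM. 6820402A03Rik and Gm8210, 23.6 Mb apart on chromosome 1, were in opposite states in every WT library.

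AC160966.1 (ENSMUSG00000111511) is a processed transcript without a known function, with 4 annotated transcripts and 2317 exon bases on the minus strand of chromosome 9 (41803165 to 41876268). WT 1 to 4 had 1, 1, 0 and 0 counts, and WT 5 and WT 6 had 176 and 134. KO 1 to 6 had 323, 292, 161, 457, 380 and 294, and KI 1 to 6 had 338, 300, 236, 298, 240 and 354. It was on in every KO and KI library and in the same WT libraries as Gm8210. WT 5 and WT 6 lay at 8.34 and 6.16 CPM, against 13.8 ± 3.62 CPM in KO and 12.7 ± 1.70 CPM in KI (SD, n = 6). It lies 6.24 Mb from Ddx25. Gm35940 on the other strand shares 121 exon bases with it and had at most 3 counts.

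Gm12666 (ENSMUSG00000066107) has 4 exons and 764 bases on the minus strand of chromosome 4 (92190744 to 92191749) and is annotated as protein coding in GENCODE and as a pseudogene in RefSeq. KI 1, KI 2 and KI 5 had 1529, 1659 and 1783 counts, whereas KI 3, 4 and 6 had 12, 13 and 12. WT 1 to 6 had 14, 13, 6, 8, 13 and 12, and KO 1 to 6 had 5, 12, 10, 13, 10 and 19. The 3 libraries that were on stood close to each other, at 66.2 to 83.4 CPM, a range of 1.26-fold. The 15 others were above the floor of 3 counts, with 5 to 19 counts and at most 0.823 CPM, and the lowest library that was on lay 80.5-fold above the highest of them.

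Gm9008 (ENSMUSG00000072476) is a single exon of 2353 bases on the minus strand of chromosome 6 (76495432 to 76497784), annotated as protein coding in GENCODE and as a pseudogene in RefSeq. KO 1 to 6 had 152, 213, 148, 182, 220 and 235 counts. WT 1 to 6 had 1, 2, 0, 0, 0 and 2. In KI, the library labelled KI 4 had 215 counts, within the range of KO, and KI 5 had 61, whereas KI 1, 2, 3 and 6 had 1, 1, 0 and 2. Without the library labelled KI 4, KI 5 was the one KI library that was on, at 2.85 CPM, below every KO library (6.70 to 10.2 CPM). The antisense gene Gm44166 overlaps 515 of its bases and had at most 1 count.

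Klrb1 (ENSMUSG00000079299) lies on the minus strand of chromosome 6 (128705836 to 128723059), 52.2 Mb from Gm9008. WT 1 to 6 had 139, 145, 107, 89, 50 and 68 counts, and KO 1 to 6 had 108, 181, 71, 208, 205 and 145. KI 1, 2 and 5 had 131, 156 and 49 counts and the library labelled KI 4 had 186, whereas KI 3 and KI 6 had 0 and 0. Klrb1 was thus on in all WT and KO libraries and in 4 of 6 KI libraries. Within the libraries that were on it ranged 3.58-fold, from 2.29 CPM in KI 5 to 8.21 CPM in KO 5. WT 5, WT 6 and KO 3 were also in the lower part of this range, with 50, 68 and 71 counts.

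**Figure D1:**
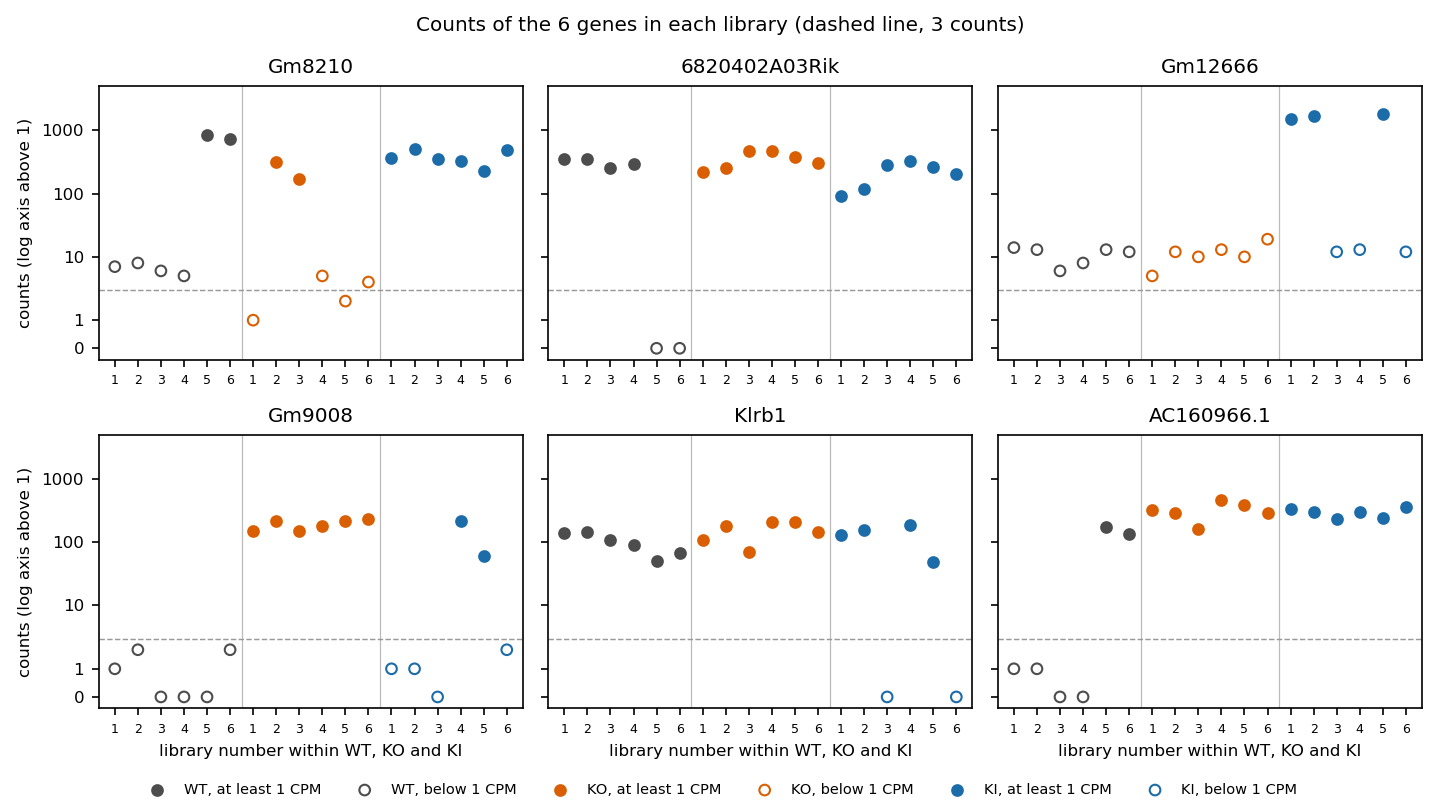
Counts of the 6 genes (y axis, log scale above 1) in each of the 18 libraries (x axis, by genotype and number). Filled points are libraries at 1 CPM or more and open points those below; the dashed line marks 3 counts, and in each panel the open points lie well under the filled ones.

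Over all 108 values of the 6 genes, 67 were on and 41 were near zero. The lowest value that was on was 2.29 CPM and the highest below was 0.823 CPM, and these belonged to different genes. The libraries fell into 7 patterns of states. WT 1, 2, 3 and 4 shared a pattern, with 6820402A03Rik and Klrb1 on. WT 5 and WT 6 shared another, with Gm8210, Klrb1 and AC160966.1 on. KO 1, 4, 5 and 6 had 6820402A03Rik, Gm9008, Klrb1 and AC160966.1 on. KO 2 and KO 3 had Gm8210 on as well, and the library labelled KI 4 had the pattern of these KO libraries. KI 1 and KI 2 had every gene on except Gm9008. KI 3 and KI 6 had Gm8210, 6820402A03Rik and AC160966.1 on, and KI 5 had all 6 on. The 6 genes did not go up and down together: over the 18 libraries, which share their depth and genotype, the Pearson r of their log2 CPM in the 15 pairs lay between -0.536 (6820402A03Rik and Gm8210) and 0.524 (Gm9008 and AC160966.1).

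Pairs of libraries were then compared over all tested genes by the median absolute difference of log2 CPM. In 18 of the 153 pairs all 6 genes were in the same state, of which 16 were pairs of 1 genotype. The median difference in these 18 pairs was 0.12 to 0.372, with a median of 0.272. In the 17 pairs that differed in 1 gene it was 0.277 to 0.514, in the 50 that differed in 2 genes 0.282 to 0.56 and in the 64 that differed in 3 genes 0.178 to 0.655. In the 4 pairs that differed in 4 genes, which were KI 5 with each of WT 1 to 4, it was 0.465 to 0.623. The median over the pairs was 0.372 for 1 gene, 0.4135 for 2, 0.3855 for 3 and 0.528 for 4. It was thus higher than in pairs with all genes in the same state, but did not rise steadily with the number of genes. The largest difference of all was in the pairs with 3 genes in different states, which were also the most numerous. The pair with the smallest difference of all, 0.12, was KO 2 and the library labelled KI 4. Over the 20624 genes that had 20 counts or more in both together, their counts gave a chi-square per degree of freedom of 1.76, where counting error alone gives about 1, and this too was the lowest of the 153 pairs, whose median was 81.9. KO 4 and KO 5 followed, at 0.13 and 2.65. KI 3 and KI 5 had a small difference over all genes (0.178) and yet differed in 3 of the 6 genes, Gm12666, Gm9008 and Klrb1. Within a genotype, WT 1 and WT 2 (3.45) and KI 1 and KI 2 (5.45) also lay far below the median chi-square. No pair was down to counting error, so none was merged, but whether close libraries came from the same animal was not tested, and n counts libraries.

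**Figure D2:**
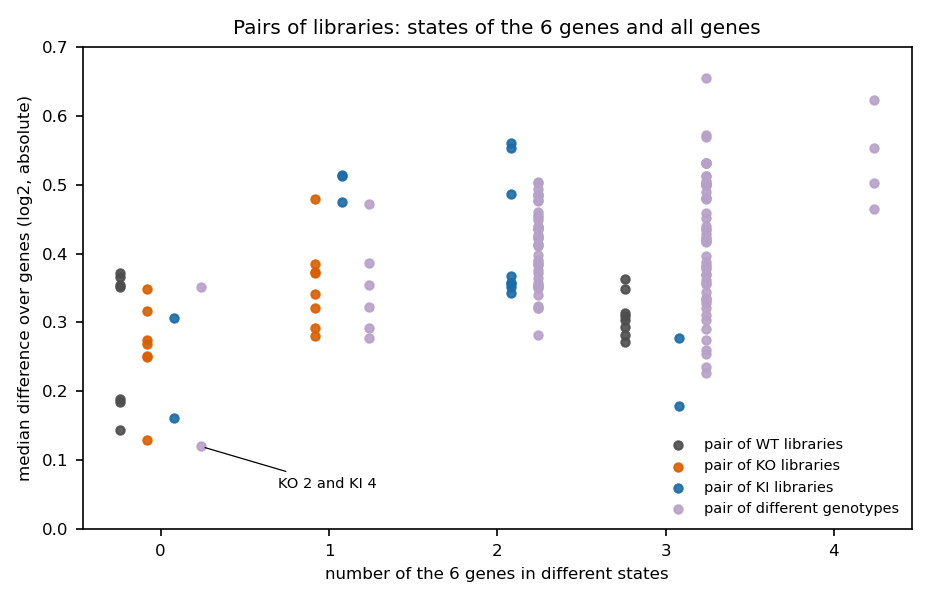
Each point is a pair of libraries; the x axis gives how many of the 6 genes were in different states (points are shifted sideways by class), and the y axis the median absolute difference of log2 CPM over all tested genes. KO 2 and the library labelled KI 4 lie lowest, at 0.12, and the pairs that differ in 3 genes span 0.178 to 0.655.

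To see how common such splits are, every gene of the table was searched for a gap of at least 10-fold between neighbouring libraries of 1 genotype, with all libraries above the gap at 1 CPM or more and counts under 3 set to 3. This rule found 35 genes, 0.0645% of 54232, with 44 splits: the 6 genes and 29 others. In WT 23 genes were split, in KO 2 and in KI 19. Of the 6 genes, those nearest to the limit were Klrb1 (16.7-fold), Gm9008 (20.8-fold) and AC160966.1 (38.7-fold), and the genes just outside it were Gm3752 (9.88-fold), Gm45315 (9.81-fold) and Gm6159 (9.76-fold). All 23 genes split in WT divided WT 1 to 4 from WT 5 and 6, 13 with the high state in WT 1 to 4 and 10 with it in WT 5 and 6. With a gap of 5-fold this held for 41 of 46 genes, or 89.1%.

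The state of 6820402A03Rik in WT was shared by 12 other genes on 7 chromosomes, 3 of them on chromosome 1. The ones with the highest CPM were Rpl29, the snRNA gene Gm25939 and the lincRNA Gm19589. The state of AC160966.1 and Gm8210, high in WT 5 and 6, was shared by the zinc finger gene Zfp990 (2542 and 2394 counts, against 21 to 29 in WT 1 to 4), by Gm18562 (371 and 420, against 1 to 8) and by Ptpro, a receptor tyrosine phosphatase (319 and 280, against 5 to 24), among 9 genes beside each of them. The KI division of Gm12666 was shared by Gm10406 and Gm3242, both on chromosome 14: Gm10406 had 235, 225 and 107 counts in KI 1, 2 and 5 and 0 or 1 in the other KI libraries. The KI division of Klrb1 was shared by Unc5c, a netrin receptor gene on chromosome 3, and by the lincRNA Gm15389 on chromosome 1. No other gene shared the division of Gm9008 in KI or that of Gm8210 in KO.

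Among the genes split in KI, 6 set 1 library apart, and in all 6 that library was the one labelled KI 4. In 5 of these its count lay within the range of KO. Gm33242 had 0 counts in it and 0 to 1 in KO, against 34 to 75 in the other KI libraries. 4930590H14Rik had 39 counts in it and 37 to 71 in KO, against 0 to 2. Tpbg, with 22 counts against 5 to 16 in KO and 235 to 346 in the other KI libraries, was the exception. For the 23 genes split in WT, each other library was set beside the medians of both WT states on the log2 scale. The KO libraries lay nearer to WT 5 and 6 in 4 to 5 of the 23 genes and the library labelled KI 4 in 6. KI 1 and KI 2 did so in 12, KI 5 in 14, and KI 3 and KI 6 in 17.

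Rpl29, the coding match of Gm8210, was itself among the split genes. It had 3384, 4196, 3619 and 3420 counts in WT 1 to 4 and 273 and 286 in WT 5 and 6. In KO it had 1468 and 1147 counts in KO 2 and 3, where Gm8210 was on, and 2677 to 3336 in the other KO libraries. In KI it was lowest in KI 3 and KI 6, with 163 and 173 counts, and reached 2047 and 2179 in KI 1 and 2. Across all libraries Rpl29 had 163 to 2179 counts where Gm8210 was on and 2677 to 4196 where it was near zero, with no overlap. Gm8210 made up 75.6% and 71.8% of the summed counts of both genes in WT 5 and 6 and 68.1% and 74.0% in KI 3 and 6. It made up 12.8% to 19.9% in the other 6 libraries where it was on and at most 0.206% elsewhere. The sum of both genes also differed between libraries, from 511 in KI 3 to 4204 in WT 2. Gm13841, identical to Gm8210 in sequence, had 14 to 57 counts and overlapped between the states (14 to 57 and 21 to 39). Gm10709, a processed pseudogene named outside the rule for named genes, matched Gm8210 at 99.4% of 480 bases and was also split. It had 70, 63, 43 and 46 counts in WT 1 to 4 and 1 and 0 in WT 5 and 6. In KO 2 and KO 3 it had 17 and 13 counts, and in KI 3 and KI 6 1 and 2. In the other KO libraries it had 29 to 40, and in the other KI libraries 13 to 36.

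For the other coding matches the ranges overlapped between the states. Larp7 had 8709 to 15078 counts where Gm12666 was on and 7229 to 15233 where it was not. Rnf26 had 38 to 62 counts where Gm9008 was on and 45 to 110 where it was not. In CPM, Rnf26 lay at 1.73 to 2.71 in the 8 libraries with Gm9008 on and at 2.07 to 4.86 in the 10 others, of which 8 lay above all of the first. In KO, where Gm9008 had 148 to 235 counts, Rnf26 had 38 to 62, and in WT, where Gm9008 was at the floor, 45 to 88. Gm49380, named outside the rule for named genes, overlaps Rnf26 on the same strand. It matched Gm9008 at 99.2% of 1664 bases and had 17 to 51 counts. Whether reads that fall on both genes were left out of the Rnf26 counts was not tested, so the levels of Gm9008 and Rnf26 cannot be ranked.

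**Figure D3:**
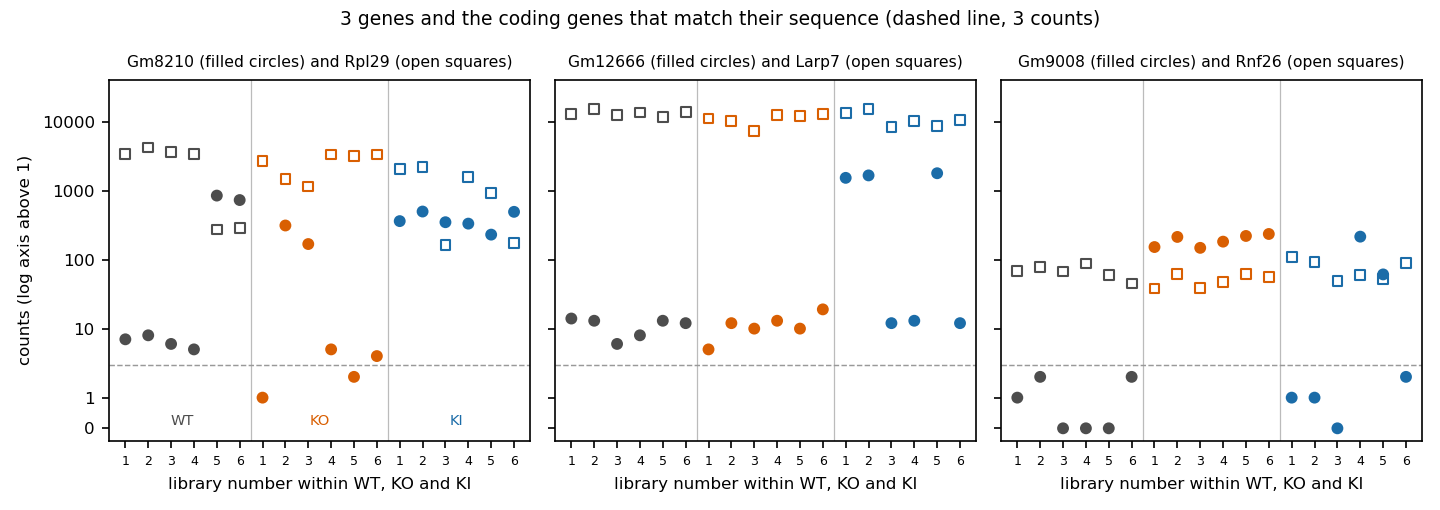
Counts (y axis, log scale above 1) of Gm8210, Gm12666 and Gm9008 (filled circles) and of the coding genes that match them, Rpl29, Larp7 and Rnf26 (open squares), in the 18 libraries (x axis). Rpl29 is lowest in WT 5, WT 6, KI 3 and KI 6, where Gm8210 is on; the counts of Larp7 and of Rnf26 overlap in range between the states of their copies.

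The genes whose log2 CPM over the 18 libraries was most like that of each gene were named by Pearson r, as a description. For Gm8210 these were Rrp9 (r = 0.952), a nucleolar protein of ribosomal RNA processing, Ppm1m (0.89) and 9630041A04Rik (0.871). All lie on chromosome 9, where Rpl29 lies: Rrp9 is 44.4 kb from Rpl29, Ppm1m 230 kb and 9630041A04Rik 4.49 Mb. Rrp9 had 392 to 651 counts in the 10 libraries where Gm8210 was on and 225 to 333 in the 8 others. For Gm12666 they were the lincRNA 4933406F09Rik (0.964), Rest (0.961), a repressor of neuronal genes, and the pseudogene Gm15920 (0.953). 4933406F09Rik had 704 to 1422 counts in KI 1, 2 and 5 and 151 to 274 elsewhere, and lies 385 kb from Gm10406, which shares the division of Gm12666. Rest had 1093 to 1375 counts in these KI libraries and 259 to 551 elsewhere. These genes lie on chromosomes 14 and 5, and Gm12666 on chromosome 4.

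For Gm9008 the most alike were the lincRNAs Gm38590 (0.931) and Gm31545 (0.925), 589 kb apart on chromosome 8, and C030014I23Rik (0.905), which lies 355 kb from Rnf26 on chromosome 9. Gm38590 had 63 to 158 counts where Gm9008 was on and 22 to 43 where it was not. For Klrb1 they were Gm15389 (0.935), Gm9172 (0.908) and Pde6h (0.903), an inhibitory subunit of the phosphodiesterase of cone cells, 8.2 Mb from Klrb1. Pde6h had 16 and 21 counts in KI 3 and KI 6, which lacked Klrb1, and 133 to 374 in the 16 others. For 6820402A03Rik they were 4930461G14Rik (0.91), Rbms2 (0.885) and Gm29283 (0.884). 4930461G14Rik had 15 and 3 counts in WT 5 and 6 and 143 to 553 elsewhere. For AC160966.1 they included Gm48814 (0.957) and BC107364 (0.908). Ranked by Spearman correlation instead, 2 of the 18 genes so chosen were found again.

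Genes near the 6 were examined next, since their counts had no part in the choice. Genotypes were compared with edgeR's glmTreat, which asks whether a change exceeds 1 log2 unit, and genes with an adjusted p (Benjamini-Hochberg) below 0.1 were called. Among all 21058 tested genes 1.73% were called in KO against WT, 1.95% in KI against WT and 0.00475% in KI against KO. Within 500 kb of the 6 genes 52 others were tested. Of these 1 was called in KO against WT (1.92%) and 1 in KI against WT (1.92%), and in KI against KO 0 were called by edgeR or by DESeq2, with 0 at an unadjusted p under 0.05. With the library labelled KI 4 left out, 1 was called in KI against WT and 0 in KI against KO. For a change of any amount (glmQLFTest) the shares of all genes were 29.9%, 31.6% and 0.0997%. Of the neighbours, 13 (25.0%) differed in KO against WT, 8 higher and 5 lower, 13 (25.0%) in KI against WT, 9 higher and 4 lower, and 0 in KI against KO. The shares near the 6 genes were thus close to those of all genes. The median log2 fold change of the neighbours was 0.02 in KO and 0.01 in KI against WT, beside 0.03 and 0.05 for all genes.

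The called neighbour was 3110039I08Rik, a processed transcript 148 kb from AC160966.1 on the other strand. It had 95, 92, 51, 75, 90 and 64 counts in WT 1 to 6, 2 to 8 in KO and 1 to 19 in KI. It fell by 3.93 ± 0.39 on the log2 scale in KO (SE, n = 6, edgeR glmTreat adjusted p = 2.57e-05) and by 3.11 ± 0.36 in KI (SE, n = 6, edgeR glmTreat adjusted p = 0.000433). Its WT libraries were not divided as those of AC160966.1 were. Gm48814, annotated as a lncRNA from a bidirectional promoter, starts 51 bases from AC160966.1 on the other strand. It had 0 counts in each of WT 1 to 4, 20 in WT 5 and 17 in WT 6. It had 11 to 54 counts in KO and 8 to 40 in KI. It was thus at 0 in the libraries where AC160966.1 was near zero and above 3 counts in those where AC160966.1 was on, though 6 of these lay below 1 CPM (0.365 to 0.961 CPM). It rose by 2.43 ± 0.68 in KO (SE, log2, n = 6, edgeR glmQLFTest adjusted p = 0.0116) and by 2.01 ± 0.69 in KI (SE, log2, n = 6, edgeR glmQLFTest adjusted p = 0.0363), but did not pass the test against 1 log2 unit (glmTreat adjusted p = 0.83 and 1).

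**Figure D4:**
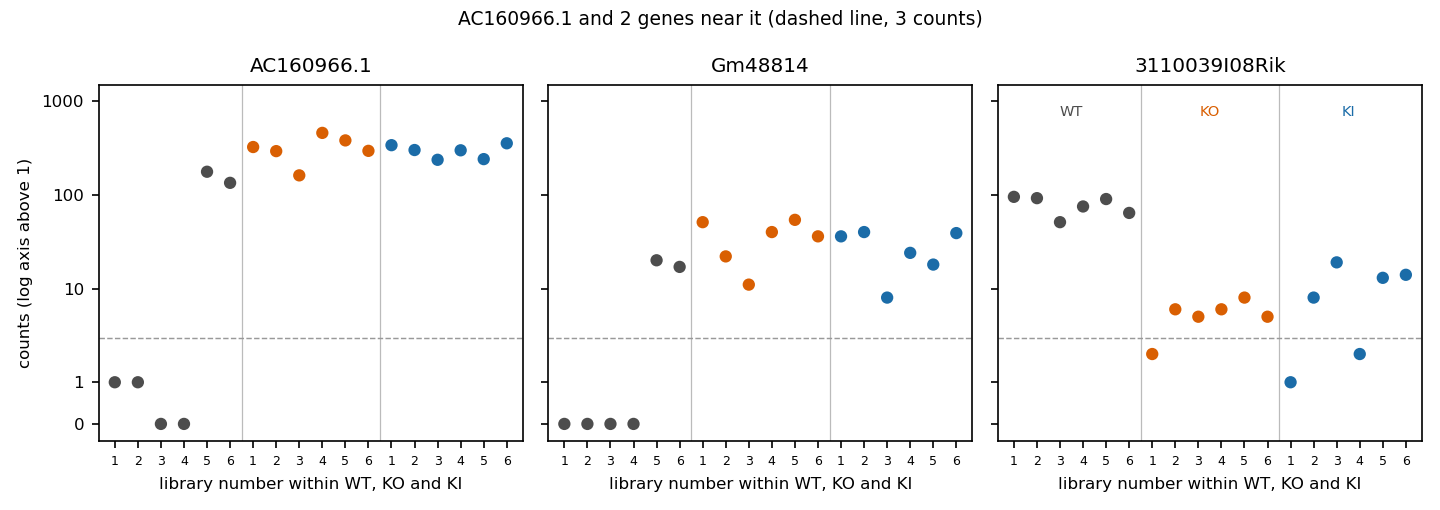
Counts (y axis, log scale above 1) of AC160966.1, of Gm48814, which starts 51 bases away, and of 3110039I08Rik, 148 kb away, in the 18 libraries (x axis). Gm48814 is at 0 in WT 1 to 4 as AC160966.1 nearly is, whereas 3110039I08Rik has 51 to 95 counts in all WT libraries and 1 to 19 in KO and KI.

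The nearest tested genes of 6820402A03Rik, Gm8210, Gm12666 and Gm9008 had ranges that overlapped or lay close together between the states of these genes. Kansl1l, in which 6820402A03Rik lies, had 1868 and 1945 counts in WT 5 and 6 and 1367 to 1936 in the 16 other libraries. In CPM the ranges did not overlap, with 88.5 and 89.5 in WT 5 and 6 and 64.4 to 85.8 in the others. Gm37285, 3.36 kb away on the same strand, had 79 and 74 counts in WT 5 and 6 and 44 to 76 in WT 1 to 4. Gm15669, 996 kb away, was split and had 40 to 62 counts in WT 1 to 4, 0 in WT 5 and 6, 16 to 34 in KO and 4 to 19 in KI. Fhl2, around Gm8210, had 3 to 20 counts where Gm8210 was on and 3 to 15 where it was not. Izumo3, 43.5 kb from Gm12666, belongs to a family of sperm membrane proteins. It had 625 to 911 counts in KI 1, 2 and 5 and 444 to 866 in KI 3, 4 and 6, and fell by 0.89 ± 0.29 in KO and by 1.24 ± 0.29 in KI (SE, log2, n = 6, edgeR glmQLFTest adjusted p = 0.0271 and 0.00279). On the other side of Gm12666, 337 kb away, the lincRNA Gm12637 had 16 to 27 counts in KI 1, 2 and 5. In KI 3, 4 and 6 it had 36 to 41, and these ranges did not overlap in CPM either (0.639 to 1.26 and 1.47 to 1.74). Over all libraries with Gm12666 near zero, Gm12637 had 12 to 48 counts. Ctnna2, an alpha-catenin that joins cadherins to actin, lies 384 kb from Gm9008 and was the 1 tested neighbour of it. It rose by 0.86 ± 0.14 in KO (SE, log2, n = 6, edgeR glmQLFTest adjusted p = 0.000113) and by 0.62 ± 0.14 in KI (adjusted p = 0.00225). In KI its range was 164 to 193 counts where Gm9008 was on and 155 to 186 where it was not. In CPM the KI ranges did not overlap, with 7.67 to 8.17 where Gm9008 was on and 6.32 to 7.42 where it was not. Over all libraries they overlapped, at 7.31 to 11.1 and 3.6 to 7.42 CPM. Unc80, part of a sodium leak channel, 94.5 kb from 6820402A03Rik, rose by 0.67 ± 0.13 in KO and by 0.68 ± 0.13 in KI (SE, log2, n = 6, edgeR glmQLFTest adjusted p = 0.000825 and 0.000646).

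Beside Klrb1, the nearest tested genes were Gm5884, 59.4 kb before it, and Gm44066, 119 kb after it. Gm5884 had 16 and 18 counts in the KI libraries without Klrb1 and 11 to 28 elsewhere, and Gm44066 had 62 and 79 against 47 to 124. The lincRNA Gm44067, 121 kb away and named after its values were seen, had 2 and 1 counts in KI 3 and KI 6, 5 in KI 5, 3 in WT 5 and 10 to 35 in the 14 others. Of 25 genes of the receptor family and its cluster, 23 were in the table and 1 passed the filter on low counts. Of these 23, 14 had at most 3 counts in every library and 1, Klrc3, had 0 in all. Their summed level was 0.679 to 1.65 CPM in WT, 1.04 to 2.01 in KO and 1.08 to 2.78 in KI, and 0 of them were called by edgeR in any comparison. Klrb1a had at most 6 counts, Klrb1b 3, Klrb1c 7 and Klrb1f 4. Clec2d, a ligand of receptors of this family, had 27 and 26 counts in KI 3 and KI 6, the libraries without Klrb1, and 1 to 15 in the 16 others. Clec2e had 5 and 9 in these and 0 to 5 in the others. Klrg1, which had the highest median count of the list (11), had 8 and 15 in KI 3 and KI 6, within the 2 to 23 of the others.

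Markers of natural killer and T cells were low in the libraries. Of 11 genes, 4 had at most 3 counts in every library and 3 passed the filter, and their summed level was 4.25 to 5.21 CPM in WT, 3.13 to 5.78 in KO and 2.01 to 6.43 in KI. The defining markers Ncr1 and Nkg7 had at most 1 and 3 counts, and Cd3g at most 5. Cd2, in contrast, had 4 to 50 counts, with 12 in KI 3 and 31 in KI 6. KI 3 and KI 6, which lacked Klrb1, had 13 and 29 counts of Ptprc, within the 7 to 46 of the other libraries. They had 16 and 15 counts of Cd3d, below the 17 to 74 of the other libraries, and the part of these markers in the state of Klrb1 was not tested. Macrophage markers summed to 7.39 to 22.3 CPM over 6 genes. In none of these lists was a gene called in any comparison by edgeR's test against 1 log2 unit.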

How the data were processed

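Reads were trimmed by the authors (cutadapt 3.4), placed on GRCm38 (STAR 2.7.8a) and counted on GENCODE M18 genes with featureCounts 2.0.1, by strand. Duplicates were marked and not removed, and the counting command does not switch on reads with several alignments. They deposited raw counts of 54232 genes, used here unchanged, and 0 columns were left without a library. Symbols and positions came from GENCODE M21 (54165 identifiers matched). One quasi-likelihood model of genotype over 18 libraries was fitted with edgeR 4.0.16 in R 4.3.3 to the 21058 genes that passed filterByExpr, with TMM factors. It was tested on simulated data, as was the search for splits. Sequences were compared with BLAST+ 2.17.0, reporting matches of at least 150 bases and 70% identity. The 6 genes and the lists were chosen with earlier results of these data known. Named genes are the 6 genes, Ddx25, for each the 3 most alike, the nearest tested gene on either side, the best sequence match, split genes within 1 Mb, the genes of highest CPM that share its division, and the receptor and marker lists. A gene that this rule selects is left out of the text. Figures were drawn with matplotlib 3.10.9. Alternatives are given in the closing section.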

Additional observations from a re-analysis of the deposited data

Results flagged for a closer look

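Gm9008 in KI was the one value of 18, 1 for each of the 6 genes in each genotype, in which a library stood apart from the rest of its group by Dixon's criterion at the 95% level. The library was the one labelled KI 4, at 9.10 CPM, and the next was KI 5 at 2.85 CPM. Chance flags about 1 group in 20 for genes not chosen by their values; these genes were chosen for a gap between libraries, so that rate does not apply and the flag is a description only. The library labelled KI 4 had Ddx25 in the range of KO, and its Gm9008 level lay within the 6.70 to 10.2 CPM of the KO libraries.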

How the results depend on the processing

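The number of split genes, 35, was 89 with a gap of 5-fold and 15 with a gap of 20-fold, where Klrb1 was no longer found. It was 21 without WT 5 and 6, an alternative chosen after seeing the data, and 34 to 46 when 1 library was left out. The other 6 alternatives gave 28 to 42. The share of WT splits that divided WT 1 to 4 from WT 5 and 6, 100%, was 89.1% with a gap of 5-fold. The single neighbour called in KO against WT became 2 with DESeq2 1.42.0, 3 without a filter on low counts, 13 for a change of any amount, 3 within 1000 kb and 2 without WT 5 and 6. In KI against WT the numbers were 2, 2, 13, 3 and 2. DESeq2, no filter and leaving out WT 5 and 6 added genes near AC160966.1: ENSMUSG00000111158 with DESeq2 and without a filter, Gm48739 without a filter in KO, and Gm48814 without WT 5 and 6, where the WT libraries that remain are all at 0 counts of it. The genes called for a change of any amount lie near each of the 6 genes. Those within 1000 kb were 1700063D05Rik and Gabarapl1. The causes were not tested. In KI against KO the count was 0 in each alternative run. The replicate number as a block left 1, 1 and 0 calls. Libraries of the same number deviated from their group means with correlations of -0.441 to 0.481, over 0.1 in 7 of 18 pairs, so the numbers do not pair the libraries. Depth limits the near-zero state to 3 counts in a library at 0.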
